A study of Mus musculus with 9 samples.

Results

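The Toll-like receptors described here are the 10 genes Tlr1, Tlr2, Tlr3, Tlr4, Tlr5, Tlr6, Tlr7, Tlr8, Tlr9 and Tlr13, found by gene symbol in a count table of 27179 genes. All 10 passed the filter on low counts and were among the 16329 genes tested. The table holds poly(A) RNA from pulverized mandibles, teeth included, of C57BL/6 male mice that were 6 months old. The 5 WT libraries were compared with 4 libraries labelled FcgRIIB-/-, from mice of the same strain in which Fcgr2b, the gene of the inhibitory receptor for IgG on B cells and myeloid cells, is deleted as a lupus model. Mice of both groups were under isoflurane when they were killed, and the labels and methods name no other allele or agent. Total counts per library were between 24158960 and 26787359 in WT and between 21453880 and 28991631 in the libraries labelled FcgRIIB-/-. The question the comparison addresses is which genes of the mandible differ in this model, and here whether receptors on the cell surface and receptors for nucleic acid in endosomes differ in the same way.

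Fcgr2b was examined first because it checks the labels. WT replicates 1 to 5 held 577, 954, 442, 630 and 529 counts of it, against 757, 562, 628 and 634 under the knockout label. The groups overlapped, and the targeted gene was not lower under the knockout label (log2 fold change 0.21, standard error 0.20, adjusted p = 0.442 in edgeR's quasi-likelihood test). Without WT replicate 2, which had the highest count, it passed as higher (log2 fold change 0.46, adjusted p = 0.0131 in edgeR). A count over the whole gene cannot tell which exons were read, so the groups are named by their labels throughout.

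Toll-like receptors are membrane proteins with a leucine-rich ectodomain that binds microbial molecules and a cytoplasmic TIR domain that recruits the adaptors MyD88 or TRIF. Tlr1, Tlr2, Tlr4, Tlr5 and Tlr6 act at the cell surface on lipopeptides, lipopolysaccharide and flagellin. Tlr3, Tlr7, Tlr8, Tlr9 and Tlr13 act in endosomes on RNA or DNA, and reach them with the chaperone Unc93b1. Signals end in NF-kB and interferon regulatory factors, and in bone the receptors are known mainly from macrophages, neutrophils, dendritic cells, B cells and osteoclast precursors. Self nucleic acid bound by Tlr7 and Tlr9 is a known driver of lupus in mice. In RNA from a whole mandible, fewer cells of a type and less RNA per cell cannot be told apart.

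The sequence before the start of 3 of these genes is shown to place the genes that the results turn on beside a short motif that myeloid and B cell genes often carry. The motif is GAGGAA, the core recognised by the transcription factor PU.1. It was searched on both strands in the 250 bases before each listed RefSeq start in the build GRCm38.p6. Some listed starts lie inside the annotated gene. The windows of Tlr3 and Tlr6 and 1 of the 2 of Tlr1 are therefore wholly inside it. Those of Tlr2 and Tlr5 and the other of Tlr1 are partly inside it. Tlr9 had the largest difference between the groups, Tlr5 was also lower in every library labelled FcgRIIB-/-, and Tlr8 did not pass the test. Capitals mark the motif, which reads TTCCTC where it lies on the other strand, and only bases before the annotated gene are printed.
Tlr9, chr9:106222348-106222597, plus strand: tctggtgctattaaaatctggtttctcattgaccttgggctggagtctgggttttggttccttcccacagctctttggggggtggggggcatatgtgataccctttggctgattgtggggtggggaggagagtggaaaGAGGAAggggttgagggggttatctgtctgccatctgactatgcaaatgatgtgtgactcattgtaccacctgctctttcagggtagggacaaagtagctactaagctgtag
Tlr8, chrX:167264330-167264579, minus strand: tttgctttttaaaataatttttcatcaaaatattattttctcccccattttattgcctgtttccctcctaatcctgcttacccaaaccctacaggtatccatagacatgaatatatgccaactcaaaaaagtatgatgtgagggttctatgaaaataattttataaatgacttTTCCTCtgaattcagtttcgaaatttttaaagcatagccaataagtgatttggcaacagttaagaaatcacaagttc
Tlr5, chr1:182954538-182954751, plus strand: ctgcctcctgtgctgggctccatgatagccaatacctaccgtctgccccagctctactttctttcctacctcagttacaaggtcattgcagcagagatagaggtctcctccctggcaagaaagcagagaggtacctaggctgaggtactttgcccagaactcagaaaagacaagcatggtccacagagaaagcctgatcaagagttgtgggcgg
The Tlr9 motif begins 112 bases before the start and the Tlr8 motif 77 bases before it, whereas the 214 bases of Tlr5 hold none. So the letters occurred in Tlr9, which passed in edgeR, and were absent in Tlr5, which passed as well. They also occurred in Tlr8, which missed in edgeR (adjusted p = 0.0588) but passed in DESeq2 (adjusted p = 0.0364). Whether the motif goes with the calls cannot be read from these 3 genes. The promoters read were 12, with 2 each for Tlr1 and Tlr6, 1 each for Tlr2, Tlr3, Tlr5, Tlr8, Tlr9, Tlr13 and the related Tlr11 and Tlr12, and none for Tlr4 and Tlr7. GAGGAA was found in 5 of the 12, those of Tlr8, Tlr9, Tlr11, Tlr13 and 1 of the 2 of Tlr1, against 23.3% of all 32851 RefSeq promoters of that length. A pair of GAAA runs with 2 bases between them, the letters of the interferon-stimulated response element, which shares no overlap with GAGGAA in these windows, was found in 2 of the 12, that of Tlr11 and 1 of the 2 of Tlr6, against 2.98% of all. The matches of Tlr1 and Tlr6 lie inside the annotated genes and not before them. All of these matches describe letters in a window, not binding.

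A pair of WT libraries stood apart. WT replicate 2 had the highest WT level of 4 of the 10 receptors (Tlr1, Tlr2, Tlr3 and Tlr9) and WT replicate 5 that of the other 6. WT replicate 2 also had the highest summed markers of B cells (116 CPM, a count scaled to the library size corrected by edgeR's TMM factors, against 32.8 to 47.9 in the other WT libraries) and of T cells (50.3 against 8.79 to 17.1 CPM). WT replicate 5 had the highest summed neutrophil markers (3452 against 1134 to 1785 CPM). Values of the receptors are therefore given with all libraries and without WT replicates 2 and 5 together, an alternative chosen after seeing the data. Since these 2 libraries hold the highest WT level of every receptor, leaving them out lowers each WT mean by construction, and a smaller difference there is not a finding.

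At an adjusted p under 0.05 in edgeR, 5 of the 10 receptors were lower in the libraries labelled FcgRIIB-/-, the surface receptors Tlr4, Tlr5 and Tlr6 and the endosomal receptors Tlr7 and Tlr9. This compares with 19.3% of all tested genes called lower and 33.3% called in either direction. None of the 10 was called higher, where 14% of all tested genes were, and no receptor was higher at an unadjusted p under 0.05 or in DESeq2 either. The log2 fold change was below 0 for all 10, with a median of -0.83 that lay between -1.66 for Tlr9 and -0.082 for Tlr3, and 49.4% of all tested genes were below 0, with a median of 0.0055. The groups did not overlap for 4 receptors, Tlr4, Tlr5, Tlr7 and Tlr9, each lower under the knockout label, against 17.5% of all tested genes that were lower without overlap and 29.6% without overlap in either direction. The same 4 passed the test with each library left out in turn and without WT replicates 2 and 5, where 9 of the 10 log2 fold changes were below 0 and the median was -0.33.

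**Figure D1:**
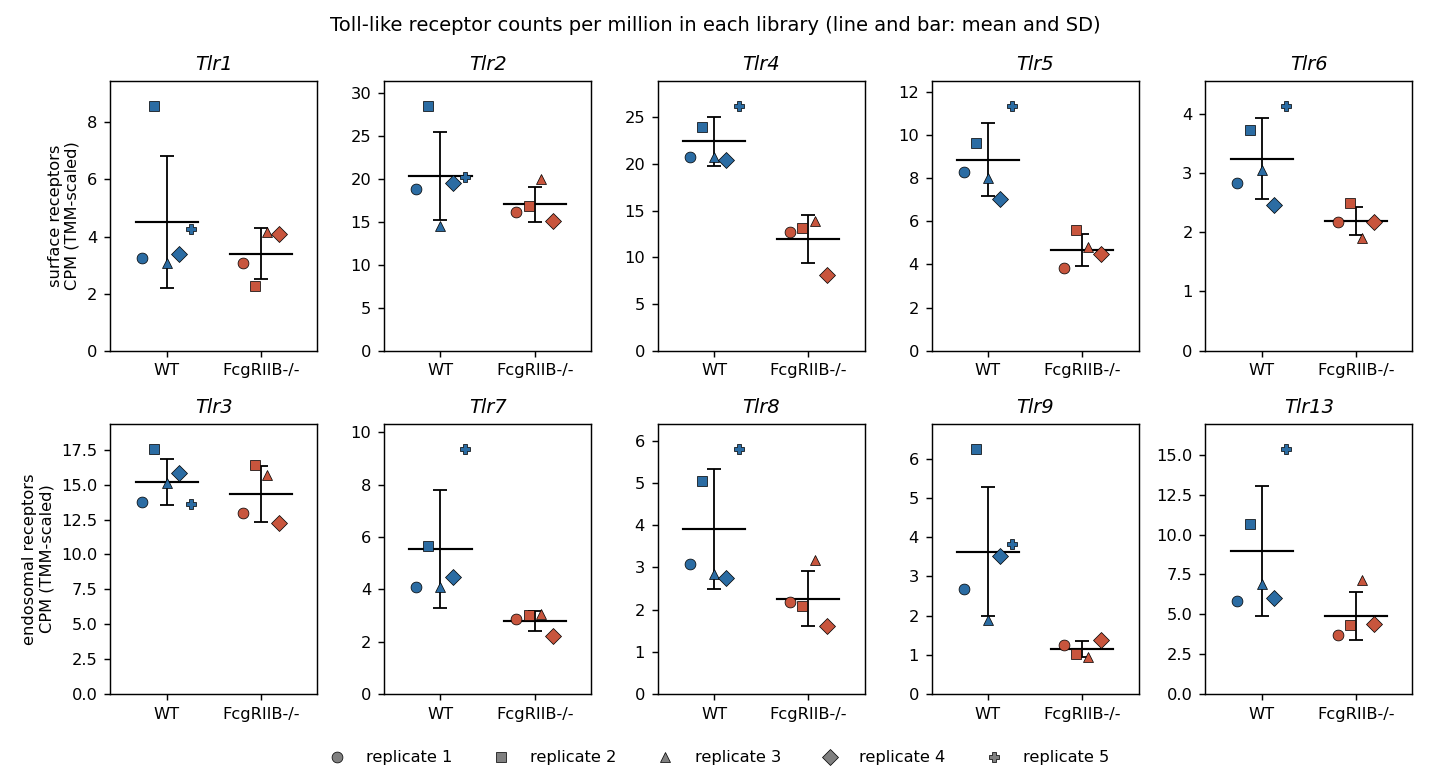
Each panel plots 1 receptor, with CPM on the vertical axis and the 5 WT and 4 FcgRIIB-/- labelled libraries as points, shaped by replicate number, over the mean and SD. Tlr4, Tlr5, Tlr7 and Tlr9 show no overlap between the groups, and WT replicate 2 or WT replicate 5 is the highest WT point in every panel.

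Among the surface receptors, Tlr4, which binds lipopolysaccharide together with Ly96 (MD-2), lies on chr4:66827551-66846581 of GRCm38 in RefSeq. It was at 20.7, 23.9, 20.7, 20.4 and 26.2 CPM in WT replicates 1 to 5, and at 12.7, 13.1, 13.9 and 8.11 CPM in replicates 1 to 4 of the libraries labelled FcgRIIB-/-. Every library under the knockout label was below every WT library. The log2 fold change was -0.90 ± 0.15 (SE, adjusted p = 0.00204 in edgeR), which leaves 53.5% of the WT level, and it was -0.76 without WT replicates 2 and 5 (adjusted p = 0.0103). These values rest on 537 to 672 counts in WT and 160 to 363 counts in the other group. Replicate 4 of the libraries labelled FcgRIIB-/- was the lowest of all 9 libraries, and without it the log2 fold change was -0.76 and still passed.

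Tlr5, the receptor for bacterial flagellin, lies on chr1:182954752-182976044, 11978.7 kb from Fcgr2b on the same chromosome. It was at 8.26, 9.63, 7.98, 7.05 and 11.4 CPM in WT, and at 3.82, 5.59, 4.79 and 4.46 CPM in the libraries labelled FcgRIIB-/-. The groups did not overlap, and WT replicate 5 was the highest. The log2 fold change was -0.93 ± 0.17 (SE, adjusted p = 0.00296 in edgeR), and it was -0.71 without WT replicates 2 and 5 (adjusted p = 0.0117).

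Tlr2 recognises lipopeptides as a dimer with Tlr1 or Tlr6, and for each of the 3 genes the groups overlapped. Tlr2 was at 18.8, 28.5, 14.5, 19.5 and 20.2 CPM in WT, and at 16.2, 16.9, 19.9 and 15.1 CPM in the libraries labelled FcgRIIB-/-. The lowest library was in WT, and Tlr2 did not pass (log2 fold change -0.25, standard error 0.17, adjusted p = 0.272 in edgeR), with a log2 fold change of -0.025 without WT replicates 2 and 5 (adjusted p = 0.918). Tlr1 was at 3.26, 8.59, 3.08, 3.38 and 4.26 CPM in WT, and at 3.08, 2.26, 4.15 and 4.10 CPM in the other group. Its log2 fold change of -0.41 ± 0.33 (SE, adjusted p = 0.362 in edgeR) rested on WT replicate 2, since it was -0.025 without that library and 0.089 without WT replicates 2 and 5. Tlr6 was at 2.83, 3.73, 3.05, 2.46 and 4.14 CPM in WT, and at 2.17, 2.50, 1.91 and 2.18 CPM in the libraries labelled FcgRIIB-/-. It passed as lower (log2 fold change -0.56, standard error 0.19, adjusted p = 0.0438 in edgeR), but the lowest WT library was below the highest of the other group. With 1 library left out in turn Tlr6 passed in 1 of 9 fits, the one without WT replicate 4, with an adjusted p of up to 0.100, and without WT replicates 2 and 5 it was at -0.32 (adjusted p = 0.248). Tlr1 and Tlr6 lie 19.5 kb apart on chromosome 5 and share sequence. Of the windows of 75 bases in their transcripts, 10.6% in Tlr1 and 9.25% in Tlr6 also occur in another gene, so the split of reads between them is uncertain, and the other 3 surface receptors share none.

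Among the endosomal receptors, Tlr9, which binds unmethylated CpG DNA, lies on chr9:106222598-106226876 and had the largest change of the 10. It was at 2.68, 6.26, 1.89, 3.52 and 3.83 CPM in WT replicates 1 to 5, and at 1.26, 1.02, 0.932 and 1.37 CPM in replicates 1 to 4 of the libraries labelled FcgRIIB-/-. The groups did not overlap, and WT replicate 2 was the highest. The log2 fold change was -1.66 ± 0.33 (SE, adjusted p = 0.00440 in edgeR), or 31.6% of the WT level. It was -1.36 without WT replicate 2 and -1.22 without WT replicates 2 and 5 (adjusted p = 0.0113). The counts were low, 49 to 156 in WT and 22 to 36 in the other group, and what share counting error has in its spread was not tested.

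Tlr7 and Tlr8, receptors for single-stranded RNA and its breakdown products, lie 39.1 kb apart on the X chromosome. Tlr7 was at 4.09, 5.66, 4.09, 4.48 and 9.37 CPM in WT, and at 2.87, 3.004, 3.05 and 2.23 CPM in the libraries labelled FcgRIIB-/-. The groups did not overlap, and WT replicate 5 lay well above the other 4 WT libraries. The log2 fold change was -0.98 ± 0.26 (SE, adjusted p = 0.0169 in edgeR), -0.69 without WT replicate 5 and -0.57 without WT replicates 2 and 5 (adjusted p = 0.0417). Tlr8 was at 3.08, 5.06, 2.85, 2.75 and 5.82 CPM in WT, and at 2.17, 2.08, 3.18 and 1.62 CPM in the other group. Its groups overlapped through replicate 3 of the libraries labelled FcgRIIB-/-, and it did not pass in edgeR (log2 fold change -0.78, standard error 0.29, adjusted p = 0.0588), although it passed in DESeq2 (adjusted p = 0.0364) and in edgeR without that library. Without WT replicates 2 and 5 the log2 fold change of Tlr8 was -0.33.

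Tlr13, which recognises bacterial ribosomal RNA in mice, lies on chrX:106143275-106160493. It was at 5.83, 10.6, 6.90, 6.02 and 15.4 CPM in WT, and at 3.68, 4.34, 7.12 and 4.41 CPM in the libraries labelled FcgRIIB-/-. Its groups overlapped through replicate 3 of the latter, and it did not pass in edgeR (log2 fold change -0.87, standard error 0.32, adjusted p = 0.0564). It passed in DESeq2 (adjusted p = 0.0227), and in edgeR without WT replicate 1 or without that replicate 3, and it was at -0.56 without WT replicate 5 and -0.33 without WT replicates 2 and 5. Tlr3, the receptor for double-stranded RNA, did not pass either. It was at 13.8, 17.6, 15.1, 15.8 and 13.6 CPM in WT, and at 13.0, 16.4, 15.7 and 12.3 CPM in the libraries labelled FcgRIIB-/-, so that the groups overlapped over most of their range. The log2 fold change was -0.082 ± 0.12 (SE, adjusted p = 0.620 in edgeR), and -0.033 without WT replicates 2 and 5 (adjusted p = 0.883). The antisense gene Gm45542 overlaps exons of Tlr3, and the strand setting of the counting was not given in the sources used here, so this count is uncertain.

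**Figure D2:**
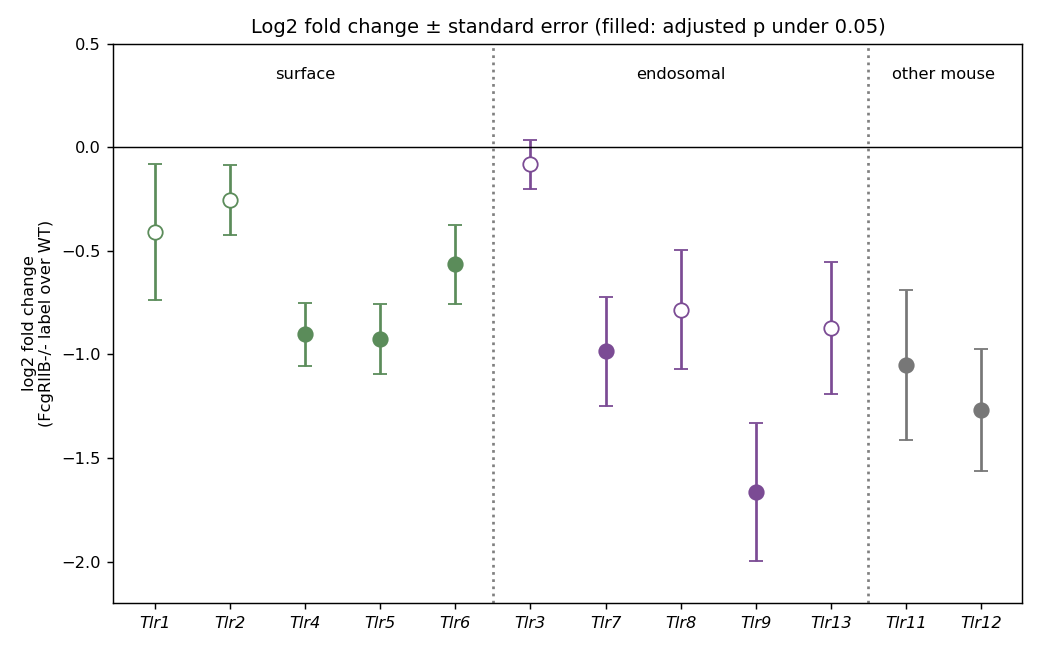
Points show the log2 fold change of each receptor in edgeR, libraries labelled FcgRIIB-/- over WT, with bars of 1 standard error, for surface, endosomal and other mouse receptors. All points lie below 0, from -1.66 for Tlr9 to -0.082 for Tlr3, and filled points passed at an adjusted p under 0.05.

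Surface and endosomal receptors were then set side by side. Of the surface receptors 3 of 5 were called lower, with a median log2 fold change of -0.56 between -0.93 and -0.25, and of the endosomal receptors 2 of 5, with a median of -0.87 between -1.66 and -0.082. Tlr4, Tlr5 and Tlr7 were at 53.5%, 52.6% and 50.5% of the WT level, so that both classes held a gene with a difference of that size beside genes that did not pass. Without WT replicates 2 and 5 the medians were -0.32 for surface and -0.33 for endosomal receptors, with 2 of 5 called lower in each, and in DESeq2 the calls were 3 of 5 and 4 of 5. Over all tested genes the number called lower was 3144 in edgeR (19.3% of those tested), 2066 without these 2 libraries and 3312 in DESeq2. The genes tested were chosen anew in the latter fits, and no share is given for them. Whether the receptor calls there exceed the background cannot be read from these numbers. The summed level of all 10, in RPKM, which is CPM divided by the exon length in kilobases, was 23.3 ± 4.92 in WT (SD, n = 5) against 15.9 ± 1.92 under the knockout label (SD, n = 4). The endosomal receptors made up 36.2% ± 2.91 of this sum in WT (33.1% to 40.9%) and 34.7% ± 1.04 in the other group (33.5% to 35.6%), so the shares overlapped.

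Tlr11 and Tlr12, the remaining Toll-like receptors of the mouse, which bind profilin of protozoa in endosomes, were both called lower. Tlr12 had a log2 fold change of -1.27 ± 0.29 (SE, adjusted p = 0.00863 in edgeR) with no overlap between the groups, passed with each library left out in turn, and was at -1.16 without WT replicates 2 and 5 (adjusted p = 0.0122). Tlr11, with 9 to 41 counts per library, had -1.05 (standard error 0.36, adjusted p = 0.0463 in edgeR), its groups overlapped, and it passed in 3 of 9 fits with a library left out. Without WT replicates 2 and 5 it was at -0.93 and did not pass (adjusted p = 0.101).

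Levels of different receptors can be compared only per length. In RPKM over the union of exons, Tlr2 was the highest receptor in WT at 6.73 ± 1.69 (SD, n = 5), followed by Tlr4 at 4.03 ± 0.465, Tlr3 at 2.91 ± 0.314, Tlr13 at 2.08 ± 0.949 and Tlr5 at 1.85 ± 0.350. Tlr7, Tlr1, Tlr8, Tlr9 and Tlr6 followed between 1.36 and 0.869 RPKM, and from Tlr3 down each neighbour in this order overlapped the next. Tlr4 in WT, between 3.67 and 4.72 RPKM, lay above all WT values of Tlr3, between 2.61 and 3.38 RPKM. In the libraries labelled FcgRIIB-/- this order changed, with Tlr3 at 2.75 ± 0.387 (SD, n = 4) ahead of Tlr4 at 2.15 ± 0.469, although their ranges overlapped. Tlr2 stayed first at 5.64 ± 0.686 RPKM, and Tlr9 was last at 0.329 ± 0.0587 RPKM, where all 4 of its values were below those of Tlr6. With the longest transcript as length in place of the exon union, 6 of the 10 kept their WT rank. On that length Tlr2, between 4.80 and 9.45 RPKM in WT, overlapped Tlr4, between 5.01 and 6.43 RPKM.

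**Figure D3:**
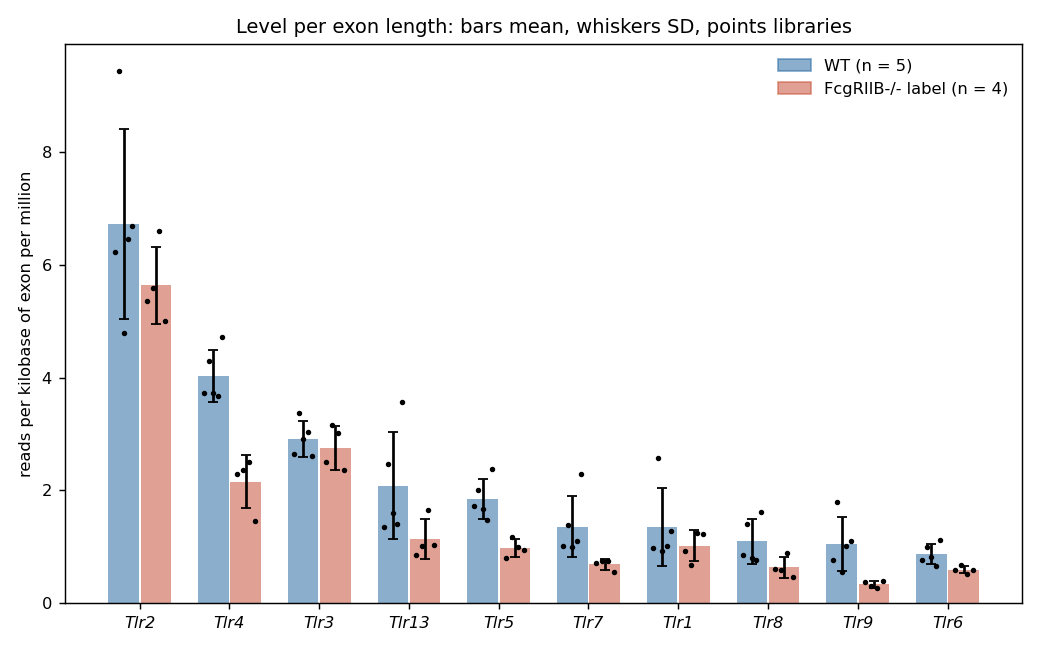
Bars show the mean RPKM of each receptor per exon length in WT and in the libraries labelled FcgRIIB-/-, whiskers the SD and points the libraries, in the order of the WT means. Tlr2 is highest in both groups, while Tlr4 falls from 4.03 to 2.15 RPKM and Tlr3 is at 2.91 and 2.75 RPKM.

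The genes whose pattern over the 9 libraries was most like that of Tlr4 were Strn, Thsd4 and Sgo1, with root mean square differences in centred log2 CPM of 0.0579, 0.0765 and 0.0848 among 12744 genes with a mean of at least 2 log2 CPM. Those most like Tlr7 were Pcdh7, Itga11 and Pcsk6, at 0.155, 0.165 and 0.167. Tlr4 and Tlr7 were taken for this as 1 surface and 1 endosomal receptor. The nearest to Tlr9, added after its values were seen, were Map4k1, Dock2 and Cd37, at 0.197, 0.203 and 0.208. So the nearest patterns to Tlr4 were closer than those to Tlr7 and Tlr9. Tlr7 and Tlr9 had fewer counts, and whether that matters here was not tested.

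The genes around the receptors were grouped by role, in 7 lists of 80 genes, of which 75 were tested. Of these 17 were lower, 3 were higher and 55 did not pass, against 19.3% of all tested genes called lower and 14% called higher, and the median log2 fold change was -0.12. The lower calls were thus near their background, and the higher calls were a smaller share than theirs. The number lower fell to 7 without WT replicates 2 and 5, and lay between 10 and 15 with 1 library left out in turn, where the number of all tested genes called lower fell from 3144 to 2066 and to between 2521 and 2771. These calls are no result about the pathway as a whole.

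Of 15 tested co-receptors, chaperones and processing enzymes, 5 were lower, 2 were higher and 8 did not pass. Lbp, which transfers lipopolysaccharide to Cd14, was at 18.1 ± 2.34 CPM (SD, n = 5) in WT and 10.2 ± 0.853 CPM (SD, n = 4) in the libraries labelled FcgRIIB-/-, without overlap (log2 fold change -0.83, standard error 0.11, adjusted p = 7.62e-04 in edgeR). Unc93b1, which carries the endosomal receptors to their compartment, was at 63.1 ± 11.3 and 44.9 ± 6.47 CPM, also without overlap (log2 fold change -0.49, standard error 0.13, adjusted p = 0.0169), and it was at -0.34 and still passed without WT replicates 2 and 5. The other calls did not all hold with libraries left out. Cd180, a receptor-like modulator of Tlr4, its partner Ly86 and the protease Ctsb were called lower with all libraries, and passed in 7, 2 and 0 of the 9 fits with 1 library left out. The lipopolysaccharide co-receptor Ly96 and the scavenger receptor Cd36 were called higher, and passed in 3 and 4 of these 9 fits. Without WT replicates 2 and 5, Ly96 passed (adjusted p = 0.0234 in edgeR) and Cd180, Ly86, Ctsb and Cd36 did not (adjusted p = 0.110, 0.191, 0.254 and 0.0705). The log2 fold changes of these 5 genes were 0.57, -1.22, -0.59, -0.28 and 0.58 with all libraries, and 0.75, -0.67, -0.37, -0.14 and 0.52 without those 2, a fit that also has fewer samples. Ctsl, a protease that cleaves endosomal receptors, and Cnpy3, a chaperone, did not pass, with log2 fold changes of 0.026 and 0.0064. Cd14, Hsp90b1, Slc15a4, Ap3b1, Lgmn and Ctss did not pass either, and Tasl could not be matched by symbol.

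Of the 6 adaptors, 2 were lower. Pik3ap1, which links the receptors to PI3 kinase, was at 9.89 ± 3.23 CPM (SD, n = 5) in WT and 4.79 ± 1.71 CPM (SD, n = 4) in the libraries labelled FcgRIIB-/- (log2 fold change -1.04, standard error 0.29, adjusted p = 0.0206 in edgeR). Ticam2, which bridges Tlr4 to TRIF, was at 3.76 ± 0.924 and 2.44 ± 0.233 CPM (log2 fold change -0.62, standard error 0.20, adjusted p = 0.0351), and neither gene overlapped between the groups. Without WT replicates 2 and 5 neither gene passed, at -0.65 and -0.42. Ticam1, which encodes TRIF, Sarm1 and Tirap did not pass, and for Ticam1 and Sarm1 the log2 fold changes were -0.15 and -0.22. For Tirap the libraries labelled FcgRIIB-/- were all above the WT libraries (log2 fold change 0.13, adjusted p = 0.100 in edgeR). Myd88, the adaptor of all these receptors except Tlr3 and named here after its values were seen, did not pass either (log2 fold change -0.19, standard error 0.10, adjusted p = 0.153 in edgeR).

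Of the 14 kinases and ubiquitin ligases, 5 were lower, by small amounts. Traf6, the ubiquitin ligase downstream of MyD88, was at 37.4 ± 1.72 CPM (SD, n = 5) in WT and 29.2 ± 0.952 CPM (SD, n = 4) in the libraries labelled FcgRIIB-/- (log2 fold change -0.36, standard error 0.06, adjusted p = 0.00201 in edgeR). Tab3, a partner of the kinase TAK1, had a log2 fold change of -0.38 ± 0.08 (SE, adjusted p = 0.00597). Both were without overlap and passed without WT replicates 2 and 5. Tab2, the TAK1 gene Map3k7 and Irak2 were the other 3 called lower, which passed in 9, 8 and 2 of the 9 fits with 1 library left out, and none of the 3 passed without WT replicates 2 and 5 (adjusted p = 0.0710, 0.0961 and 0.174 in edgeR). Their log2 fold changes were -0.26, -0.22 and -0.28 with all libraries and -0.21, -0.19 and -0.20 without those 2. Tbk1 and Chuk, kinases of the interferon and NF-kB branches, did not pass, at 0.0083 and 0.0058.

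Of 10 transcription factors, 2 were lower and 1 was higher. Rel, the c-Rel subunit of NF-kB that is most abundant in lymphoid and myeloid cells, was at 4.60 ± 0.915 CPM (SD, n = 5) in WT and 1.59 ± 0.345 CPM (SD, n = 4) in the libraries labelled FcgRIIB-/- (log2 fold change -1.53, standard error 0.21, adjusted p = 8.90e-04 in edgeR). Irf8, a regulator of myeloid and B cell development, was at 25.7 ± 7.58 and 12.0 ± 2.76 CPM (log2 fold change -1.10, standard error 0.22, adjusted p = 0.00423), and both passed with each library left out. The NF-kB genes Nfkb2 and Relb did not pass, at 0.039 and -0.027, and neither did Nfkb1 and Rela. Irf3, which acts downstream of TRIF, was the one called higher, without overlap (log2 fold change 0.33, standard error 0.071, adjusted p = 0.00609 in edgeR). It passed with each library left out in turn, and without WT replicates 2 and 5 (adjusted p = 0.0149 in edgeR).

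Of 11 negative regulators, 2 were lower, Tnfaip3, the A20 ubiquitin editor, and Zc3h12a, the RNase Regnase-1. Their log2 fold changes were -0.70 (standard error 0.21, adjusted p = 0.0288 in edgeR) and -0.37 (standard error 0.12, adjusted p = 0.0391), and without WT replicates 2 and 5 neither passed, at -0.49 and -0.32. The RNA-binding protein Zfp36 and the A20 partner Tnip1 were at 0.14 and -0.043 and did not pass. Of 7 tested nucleases that degrade the ligands, Dnase1l3, which digests DNA in circulating microparticles and whose loss causes lupus in mice and people, was lower. It was at 4.83 ± 1.82 CPM (SD, n = 5) in WT and 1.72 ± 0.490 CPM (SD, n = 4) in the libraries labelled FcgRIIB-/- (log2 fold change -1.49, standard error 0.30, adjusted p = 0.00449 in edgeR), and it passed with each library left out. Rnaset2a, Rnaset2b and Pld3 did not pass, at 0.29, -0.12 and -0.022, and the first 2 are near-identical copies whose reads may be split. Rnaset2a was higher in every library labelled FcgRIIB-/- than in any WT library (adjusted p = 0.0791 in edgeR). Dnase1 had too few counts to be tested.

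Among the 12 tested genes that Toll-like receptors induce, 0 were called in edgeR, 0 in DESeq2 and 0 at an unadjusted p under 0.05. The cytokine Tnf had a log2 fold change of -0.56 ± 0.32 (SE), Ptgs2, the inducible cyclooxygenase, 0.45 (standard error 0.31), Nos2 -0.085 (standard error 0.34) and the chemokine Ccl3 -0.044 (standard error 0.57). Nfkbiz, the most abundant of the list and named here after its values were seen, was at 0.15 (standard error 0.14), so that standard errors in the list lay on both sides of the 0.15 of Tlr4. Il6, Il10 and Ifnb1 did not pass the filter on low counts and were not tested, and Ifnb1 had 0 counts in every library. For the cytokine Il6 the WT libraries gave 8, 28, 1, 3 and 4 reads by replicate number, and the libraries labelled FcgRIIB-/- gave 2, 77, 65 and 5. The groups overlapped, with 2 high libraries under the knockout label, at a mean of 0.344 ± 0.446 CPM (SD, n = 5) in WT and 1.66 ± 1.76 CPM (SD, n = 4) in the other group. Il6 is named here after its values were seen.

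**Figure D4:**
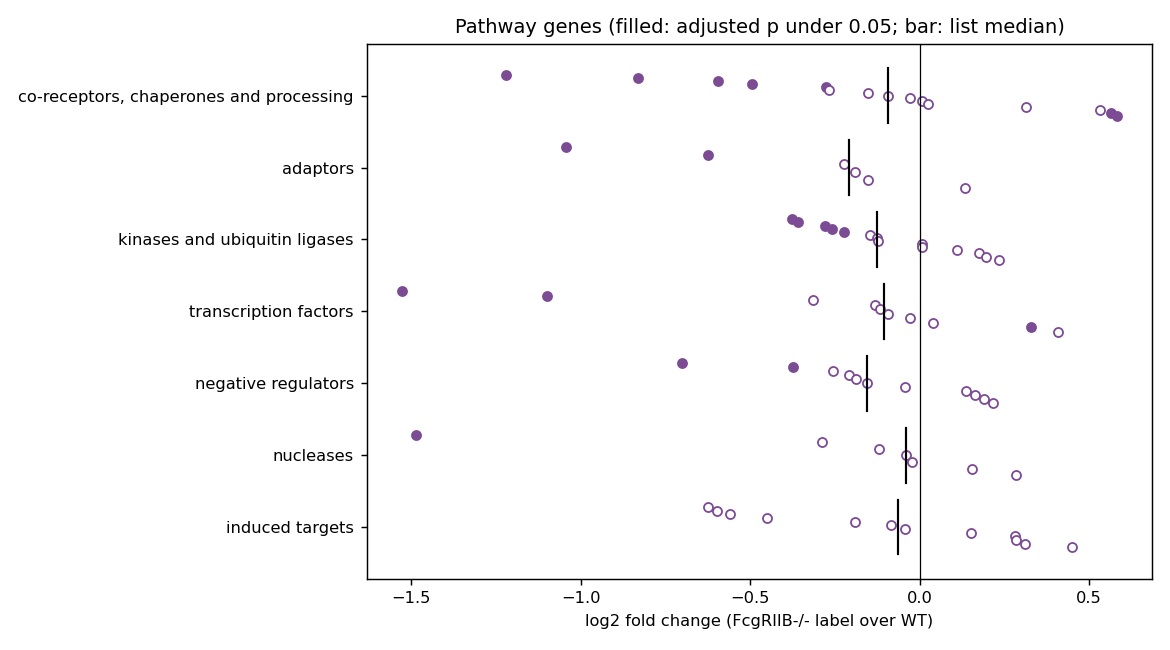
Each point is the log2 fold change of 1 pathway gene in edgeR, in rows by role, with filled points past an adjusted p of 0.05 and a bar at the median of each list. Most of the 75 points lie close to 0, and Rel and Dnase1l3 are farthest to the left.

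Markers of several blood and marrow cell types were lower along with the receptors. The 4 general hematopoietic markers Ptprc, Laptm5, Coro1a and Cd52 were all lower, and their summed level was 236, 397, 185, 218 and 316 CPM in WT replicates 1 to 5 and 123, 90.6, 139 and 136 CPM in the libraries labelled FcgRIIB-/-. Laptm5, the most abundant, was at 90.8 and 47.4 CPM. Of 10 macrophage and monocyte markers 7 were lower, among them the inflammatory monocyte genes Ly6c2 and Ccr2 and the CSF1 receptor gene Csf1r, the most abundant at 118 and 65.3 CPM, while C1qa, Mertk and Fcgr1 did not pass. Their sum was 399, 576, 390, 422 and 539 CPM in WT and 310, 273, 325 and 302 CPM in the other group. Both sums were lower in every library labelled FcgRIIB-/- and highest in WT replicates 2 and 5.

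All 10 neutrophil markers were lower, with a summed level of 1662, 1391, 1134, 1785 and 3452 CPM in WT and 417, 140, 369 and 153 CPM in the libraries labelled FcgRIIB-/-. The most abundant, S100a9, was at 557 and 102 CPM, and Ly6g had between 0 and 3 counts under the knockout label. Of 9 B cell markers 8 were lower, with sums of 47.9, 116, 32.8, 38 and 45.7 CPM in WT and 9.71, 6.10, 15.8 and 21.9 CPM in the other group. Their most abundant gene, Cd79b, was at 12.4 and 3.18 CPM, and Ms4a1 was at 0 counts in replicate 2 of the libraries labelled FcgRIIB-/-.

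Of 4 tested plasmacytoid dendritic cell markers, Siglech, Ccr9 and Spib were lower and Bst2, also an interferon-induced gene and the most abundant at 18.6 and 25.4 CPM, was higher, so that the sum was 33.9 ± 6.95 and 29 ± 3.41 CPM. Klk1 was not tested. Of 7 conventional dendritic cell markers 4 were lower and their sum was 33.1 ± 7.37 CPM in WT and 24.1 ± 6.79 CPM in the other group, with Itgax the most abundant at 11.2 and 10.05 CPM. Of 6 T cell markers Cd4 was lower, and the sum was 19.5 ± 17.5 and 7.80 ± 2.14 CPM. Of 7 osteoclast markers 6 were lower, with a sum of 986 ± 176 and 420 ± 104 CPM and Ctsk the most abundant at 471 and 231 CPM. All 5 erythroid markers were lower, from 426 ± 75.6 to 23.2 ± 21.5 CPM, with Slc4a1 the most abundant at 235 and 9.49 CPM.

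The lists of tissues other than blood and marrow did not fall together. Of 4 endothelial markers 0 were called in edgeR, with 1 at an unadjusted p under 0.05, and their sum was 364 ± 18.3 CPM (SD, n = 5) in WT and 389 ± 28.1 CPM (SD, n = 4) in the libraries labelled FcgRIIB-/-, with Pecam1 the most abundant at 126 and 141 CPM. Of 6 bone matrix markers Ibsp and Sp7 were lower, and Col1a1, the most abundant, was at 31252 and 32590 CPM. Of 4 tooth matrix markers 3 were higher, with Amelx at 7275 and 18474 CPM, and of 6 skeletal muscle markers 3 were higher, with a sum of 10731 ± 3060 and 18679 ± 5388 CPM and Myh1 the most abundant at 2612 and 4056 CPM. Of 5 markers of stratified epithelium Krt5 was higher and Lor was lower, both without overlap between the groups. Lor was at 376 ± 258 CPM (SD, n = 5) in WT and 3.51 ± 0.760 CPM (SD, n = 4) in the libraries labelled FcgRIIB-/-. The most abundant of this list, Krt14, was at 2270 and 2674 CPM. Of the 14 marker sums, 6 were lower in every library labelled FcgRIIB-/- than in any WT library, those of general hematopoietic cells, macrophages and monocytes, neutrophils, B cells, osteoclasts and erythroid cells. A further 2, of tooth and muscle, were higher in every one, and the other 6 overlapped. Since CPM is a share of each library, tooth and muscle RNA takes part of the total, and its part in the receptor result was not tested. The part of the blood and marrow cell types in it was not tested either.

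The receptors were also set against 5 of these sums. Each of the 5 was lower under the knockout label, so dividing by it raises every gene there, and a count of receptors can be read only against the same count over all 16329 tested genes. Per 100 CPM of summed hematopoietic markers, Tlr4 was at 8.73 ± 1.87 CPM (SD, n = 5) in WT and 10.2 ± 3.45 CPM (SD, n = 4) in the libraries labelled FcgRIIB-/-, Tlr7 was at 2.08 ± 0.582 and 2.37 ± 0.696 CPM, and Tlr9 was at 1.31 ± 0.268 and 0.956 ± 0.198 CPM, each with overlap. On this scale 3 of the 10 receptors, Tlr1, Tlr2 and Tlr3, were higher without overlap, against 68.7% of all tested genes. Per 100 CPM of macrophage and monocyte markers, Tlr2 and Tlr3 were higher without overlap, against 53.6% of all tested genes, and 7 receptors overlapped. Tlr9 was lower without overlap on that scale, at 0.758 ± 0.223 and 0.380 ± 0.0705 CPM, as were 3.52% of all tested genes. Per osteoclast markers 4 of the 10 receptors were higher without overlap, against 82.4% of all tested genes, and per B cell markers also 4, against 81.8%. Per neutrophil markers 9 of the 10 were, against 93.5%. Tlr9 overlapped on these last 3 scales, at 0.362 ± 0.125 and 0.295 ± 0.137 CPM per 100 CPM of osteoclast markers, 6.88 ± 1.81 and 10.4 ± 5.28 CPM per 100 CPM of B cell markers, and 0.217 ± 0.134 and 0.544 ± 0.316 CPM per 100 CPM of neutrophil markers. Lower without overlap were 0 of the 10 per hematopoietic, osteoclast, B cell or neutrophil markers, against 1.61%, 1.22%, 0.441% and 0.386% of all tested genes. Nothing about the receptors is read from the higher values on these scales.

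**Figure D5:**
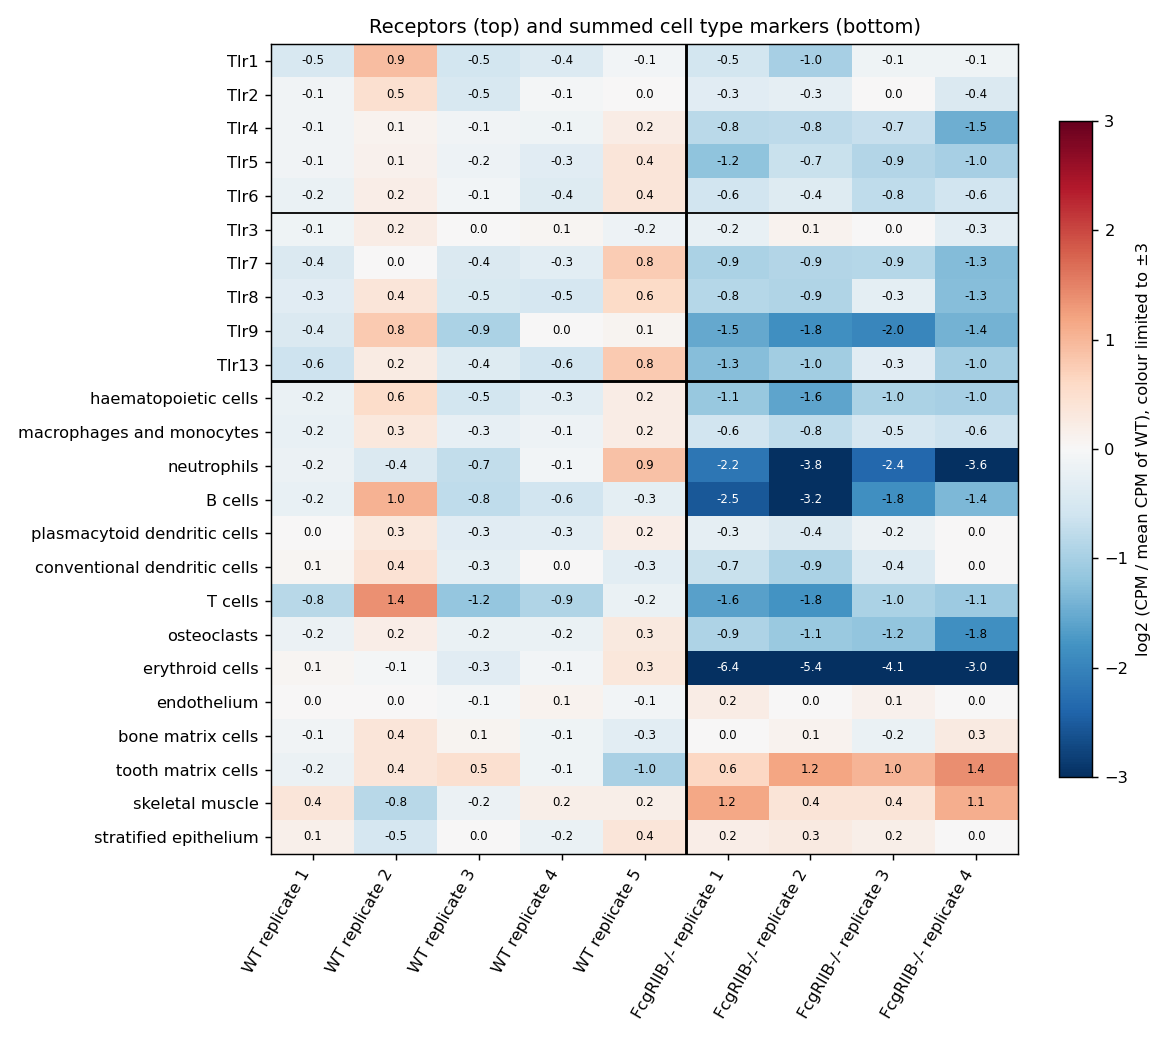
The color and number in each cell give log2 of the CPM over the mean CPM of WT, for the 10 receptors in the upper rows and the summed markers of 14 cell types in the lower rows, with 1 column per library. Most receptors and most blood and marrow lists are below the WT mean in the 4 libraries labelled FcgRIIB-/-, with Tlr3 close to it, tooth and muscle lists are above it, and WT replicates 2 and 5 are the highest WT columns in most receptor rows.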

How the data were processed

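Poly(A) RNA of 5 WT and 4 FcgRIIB-/- labelled mandibles was sequenced from separate mice. The authors deposited raw counts per gene. The submitters' processing notes name Trim Galore, HISAT 02.1.0, featureCounts and mm10, and the annotation, the strand setting and the handling of reads matching several genes were not given in the sources used here. A further 1 column, of a library not mapped to these samples, was not used. Groups and replicate numbers came from the labels.

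Counts were analysed in R 4.3.3 with edgeR 4.0.16 over all 16329 genes left by filterByExpr (minimum count 10), with TMM factors, the quasi-likelihood test of genotype and Benjamini-Hochberg adjustment at 0.05. The standard error of a log2 fold change is its size divided by the root of the F statistic. Alternatives were RLE and upper-quartile factors, other filters, DESeq2 1.42.0, a replicate block and leaving out libraries. Counts were also simulated with the library sizes of this comparison (16329 genes, 200 changed, each at a mean of at least 1 CPM). There edgeR recovered 81% of changed genes at a log2 fold change of 1, with 5.26% false among calls. At 0.5 it recovered 11.5% of them, with 11.5% false. In the data 33.3% of tested genes were called, a larger share than was changed in the simulation. These rates therefore hold for the simulated setting and are not the rates of this comparison. No libraries were near-identical in their counts.

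The receptors and all lists were chosen with earlier results of these data known. Within a pathway list, values are given for the 2 genes with the lowest and the 2 with the highest adjusted p. Values are also given for other genes that were called or whose groups did not overlap. A few more are marked as named after their values were seen. Marker genes are named by list. Pattern likeness used log2 CPM with a prior count of 2. Levels per length used exon unions of GENCODE. Coordinates and promoters are from RefSeq (GRCm38.p6), where 8 of the 10 receptors had a promoter sequence. Shared sequence was searched in windows of 75 bases, the read length.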

Additional observations from a re-analysis of the deposited data

Results flagged for a closer look

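In groups of 4 or 5 libraries, a library far from the rest of its group was found for 12 values, where 110 groups were examined and chance marks about 1 in 20. WT replicate 2 was high for Tlr1 (8.59 CPM against 3.08 to 4.26 in the other WT libraries), Fcgr2b (38.3 against 17.0 to 23.1), Unc93b1 (83.3 against 55.7 to 59.5), Relb (27.4 against 18.2 to 20.8) and Ccl3 (1.97 against 0.270 to 0.652). It was also high in the summed markers of B cells (116 against 32.8 to 47.9 CPM) and of T cells (50.3 against 8.79 to 17.1 CPM). WT replicate 5 was high in the summed neutrophil markers (3452 against 1134 to 1785 CPM), and WT replicate 1 was low for Cnpy3 (39.2 against 45.0 to 46.5 CPM). Among the libraries labelled FcgRIIB-/-, replicate 4 was high for Fcgr2b (32.1 against 26.0 to 26.6 CPM) and low for Tab3 (15.4 against 17.4 to 17.8 CPM), and replicate 2 was high for Zfp36 (68.1 against 32.8 to 37.2 CPM).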

How the results depend on the processing

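The lowest counts in a library were 22 for Tlr9 and 9 for Tlr11, and what share counting error has in their spread was not tested. The number of receptors called lower was 5 in edgeR, 7 in DESeq2, 4 without the low-count filter and 4 to 6 with 1 library left out in turn, and 0 were higher in any of these. Endosomal receptors called lower were 4 in DESeq2 and 2 to 4 with 1 library left out. Tlr6 lost its call in the replicate block (adjusted p = 0.126 in edgeR). Pathway genes called lower were 17, 10 to 15 with 1 library left out, and pathway genes called higher were 3 and 1 to 4. The labels do not say that libraries of the same replicate number belong together. Same-numbered deviations had correlations of 0.0969, 0.0276, -0.114 and -0.0739, and those of unlike numbers lay between -0.206 and 0.153. Such values cannot tell whether the numbers pair the libraries. With the number as a block, 4 receptors and 9 pathway genes were lower and 2 pathway genes were higher. Of all tested genes, 2410 were then lower and 1594 higher, against 3144 and 2289 without the block. In the block Chuk was at -0.031, Pld3 at 0.018 and Ccl3 at 0.15. Without WT replicates 2 and 5 together, chosen after seeing the data, 7 pathway genes were lower, 2066 of all tested genes were lower and 1479 higher, Fcgr2b was at 0.47, Tlr1 at 0.089, Chuk at -0.023, Relb at 0.11, Tnip1 at 0.082, Pld3 at 0.12 and Ccl3 at 0.86. In the 9 fits without 1 library, Fcgr2b had log2 fold changes between 0.13 and 0.46. Of the 75 pathway genes 22 changed sign with a library left out, and 0 of the 22 passed in any of these 9 fits. Of those with values in the text the ranges were Cnpy3 -0.019 to 0.042, Ctsl -0.019 to 0.074, Sarm1 -0.38 to 0.00026, Chuk -0.048 to 0.072, Tbk1 -0.065 to 0.050, Nfkb2 -0.018 to 0.16, Relb -0.094 to 0.11, Tnip1 -0.079 to 0.038, Zfp36 -0.18 to 0.25, Pld3 -0.080 to 0.041, Rnaset2b -0.33 to 0.22, Ccl3 -0.24 to 0.68 and Nos2 -0.46 to 0.13. With the longest transcript as length, 6 of 10 receptors kept their WT rank. The cause of these changes was not tested.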
